A study of Mus musculus with 8 samples.

Results

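The genes described here build the proton pump of the lysosome, the vacuolar ATPase, and the machinery on the lysosomal surface that reports nutrients to the kinase mTOR. They were chosen by symbol, with earlier results of these data known. The rule took every gene whose symbol begins with Atp6v0, Atp6v1 or Atp6ap. It also took Tcirg1, Lamtor1 to Lamtor5, Rraga, Rragb, Rragc, Rragd, Mtor, Rptor, Rheb, Tsc1, Tsc2, Flcn and Slc38a9. This gave 41 of the 24942 genes listed, 25 of them subunits or accessory proteins of the pump and 16 of them nutrient-sensing genes. RNA came from retinal ganglion cells, the neurons whose axons form the optic nerve, taken at postnatal day 8 and purified by immunopanning, in which antibody-coated plates retain the wanted cells. NPC1-deficient mice gave 4 libraries and their wildtype littermates another 4, with the strain given as BALB/cNctr-Npc1m1N/J, and the comparison addresses how loss of NPC1 alters gene expression in this neuron. The labels do not say whether the libraries came from separate animals, so the p-values describe the spread among these libraries alone, which may be technical.

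The vacuolar ATPase is a rotary pump: its cytosolic sector, V1, hydrolyses ATP, and the turning of the stalk drives protons through the membrane sector, V0, into lysosomes, endosomes and, in neurons, synaptic vesicles. The Ragulator complex, which contacts the pump, holds the Rag GTPases on the lysosomal membrane. When amino acids are plentiful, the Rag GTPases recruit the mTOR complex mTORC1 there, to its activator Rheb. NPC1 exports cholesterol from the lysosome, and work in cultured mammalian cells has placed lysosomal cholesterol, SLC38A9 and NPC1 upstream of mTORC1.

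Recovered library totals ran from 35416750 to 41875855 reads in NPC1-deficient libraries and from 33030175 to 44050118 in wildtype libraries. Npc1, read as the check of the labels, had normalized read counts of 140, 70.0, 67.6 and 66.1 in NPC1-deficient libraries 1 to 4, against 707, 754, 831 and 857 in wildtype libraries 1 to 4 (log2 fold change -3.25, SE 0.20, limma adjusted p = 3.23e-05). In a second label field the entry is wildtype for libraries 1 and 2, and homozygous for libraries 3 and 4, in either genotype; this goes against the titles and these values. The 13 ganglion cell markers were all present, with summed normalized counts of 415289 to 442966 in NPC1-deficient libraries and 389065 to 415996 in wildtype libraries. Markers of several other retinal cells were lower in NPC1-deficient libraries, although no marker passed the test. The summed microglial markers (15 of 15 lower) ran from 1318 to 2817 in NPC1-deficient libraries and from 2390 to 12754 in wildtype libraries. The rod photoreceptor markers (10 of 10 lower) ran from 3454 to 4215 in NPC1-deficient libraries and from 4940 to 10597 in wildtype libraries. The amacrine markers (8 of 8 lower) ran from 1419 to 2116 in NPC1-deficient libraries and from 2473 to 4768 in wildtype libraries. The bipolar (6 of 6 tested), Mueller glia (6 of 6 tested) and cone markers (3 of 3 tested) were also lower. Of 5 vascular and pericyte markers tested 4 were lower, and the 2 astrocyte markers tested were higher. In such bulk RNA, fewer cells of a type in the purified sample and less RNA per cell cannot be told apart. The cells were purified, so these sums do not show how common a cell type was in the retina.

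None of the pump and nutrient-sensing genes passed the test between NPC1-deficient and wildtype libraries. Of the 41, 39 had a mean normalized count of at least 10 and were tested; Atp6v0d2 and Atp6v1e2 were below it. With limma on log2(normalized count + 1), 0 of the 39 were below an adjusted p of 0.05, where 16 of 15386 genes tested (0.104%) were, and 2 of the 39 were below an unadjusted 0.05, where 6.76% of genes tested were. Split by direction, limma called 0.039% of all genes as higher and 0.065% as lower in NPC1-deficient libraries. On the recovered reads, edgeR called 0 of the 39, with 2 at an unadjusted p under 0.05, where its shares over all genes were 0.104% and 6.93%. DESeq2 also called 0, with 2 at an unadjusted p under 0.05, where its shares over all genes were 1.6% and 6.4%. The 2 genes were Atp6v0a4 and Rragd, which were also the only 2 of the 39 whose groups did not overlap, a property of 4.27% of all genes tested (1.86% with NPC1-deficient libraries higher and 2.41% with them lower). The log2 fold change was positive for 28 genes and negative for 11, with a median of 0.02, while all genes tested had a median of 0.005, with 7994 positive and 7392 negative. Among abundant genes the balance also leaned to positive values: of the 28 genes with a mean of at least 1000, 22 were positive with a median of 0.03, and of the 5765 genes tested at that level 3482 were positive with a median of 0.01.

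For the abundant genes the interval of the difference was narrow. The 28 with a mean normalized count of at least 1000 had log2 fold changes from -0.09 (Rragc) to 0.17 (Rragd), and 27 of them lay within 0.1 of 0. Their 95% intervals reached at the lowest to -0.25, a decrease of 15.6%, for Rragc, and at the highest to 0.30, an increase of 22.7%, for Rragd. For 26 of the 28 the whole interval lay within 0.25 of 0 on the log2 scale, the exceptions being Rragd and Atp6v0a1. The scatter between libraries was close to that of other genes of like abundance. For the 28 the median coefficient of variation was 5.98% in NPC1-deficient and 4.58% in wildtype libraries, and over all genes tested with a mean of at least 1000 it was 6.38% in NPC1-deficient and 4.98% in wildtype libraries.

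**Figure D1:**
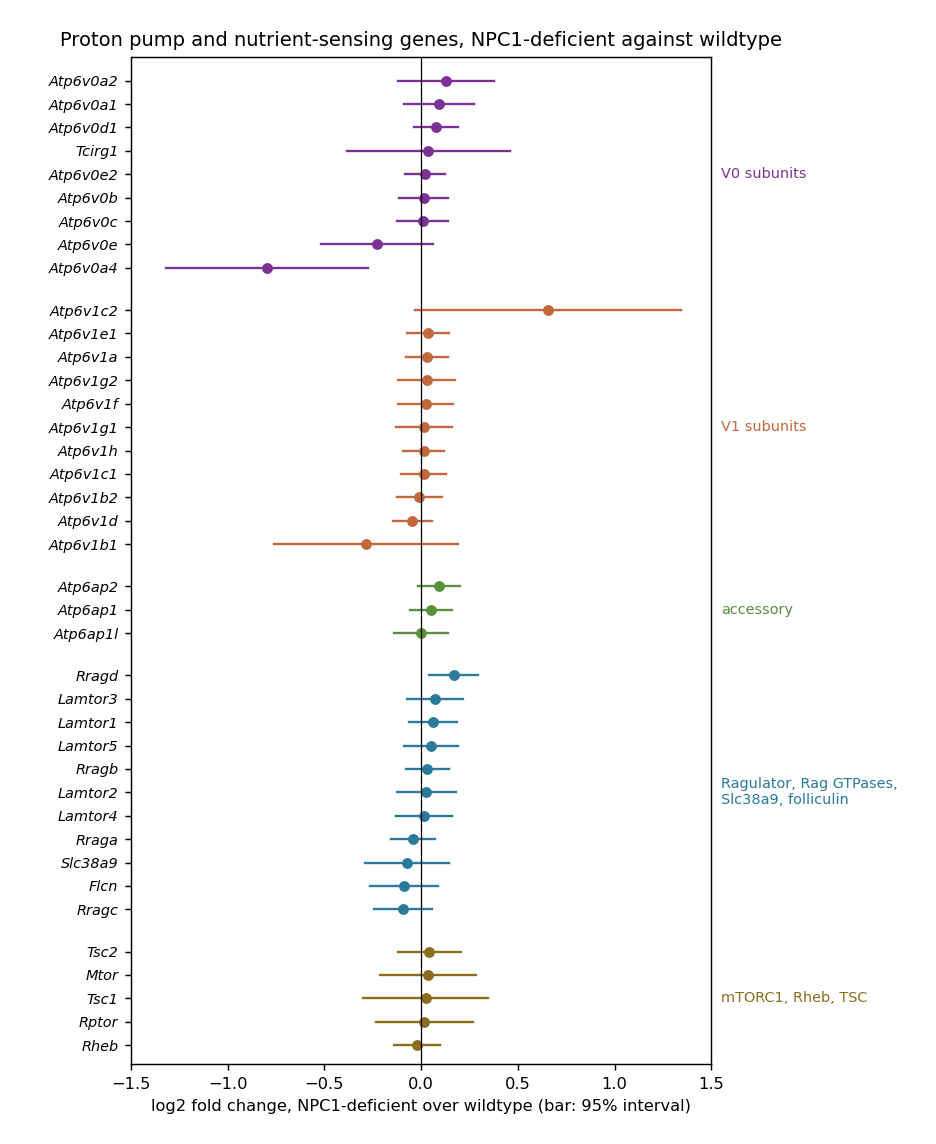
Log2 fold change of NPC1-deficient over wildtype libraries for the 39 genes tested, by complex, with the 95% interval of the limma fit as bars. The intervals of Rragd (0.04 to 0.30) and Atp6v0a4 (-1.32 to -0.28) leave out 0, and no gene passed after adjustment.

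The pump as a whole was highly expressed. Levels of different genes are compared here as normalized counts per kilobase of the reference transcript. On that scale 14 of the 23 pump genes tested lay at or above the 95th percentile of all genes tested, which stood at 4341 per kilobase, and 6 lay below the median of 163.6. Of the 16 nutrient-sensing genes, 3 lay at or above the 95th percentile and 4 below the median. Where a subunit has several paralogs, 1 of them usually carried nearly all of the signal, and it was the same paralog in both genotypes.

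**Figure D2:**
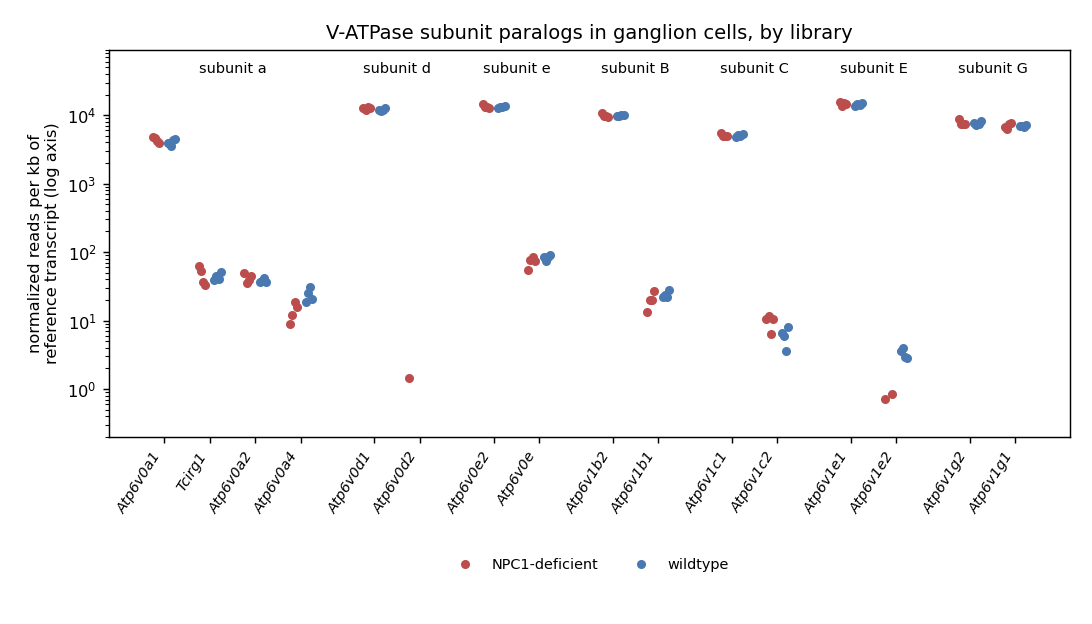
Normalized counts per kilobase of the paralogs of 7 pump subunits on a log axis, with NPC1-deficient libraries left of wildtype libraries and 1 point per library; libraries at 0 are not drawn. In the a, B, C, d, E and e subunits 1 paralog stands far above the others, and in the G subunit both paralogs lie at a like level.

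In the membrane sector V0, subunit a links the proton path to the stator and decides in part where a pump resides. Atp6v0a1, the paralog of synaptic vesicles and neuronal lysosomes, supplied 97.7 ± 0.13% of the per-kilobase signal of the a subunits in NPC1-deficient and 97.5 ± 0.27% in wildtype libraries (SD, n = 4 each). Its gene (ENSMUSG00000019302, chromosome 11, 101009452 to 101063719, plus strand, mm10) had normalized counts of 19305, 18627, 16632 and 15581 in NPC1-deficient libraries 1 to 4, against 15818, 14370, 17605 and 18094 in wildtype libraries 1 to 4. The groups overlapped widely, since the high NPC1-deficient libraries were 1 and 2 and the high wildtype libraries were 3 and 4 (log2 fold change 0.09, SE 0.08, limma adjusted p = 0.981). Atp6v0a2, the paralog of the Golgi and endosomes, averaged 224 ± 30.5 in NPC1-deficient and 204 ± 13.0 in wildtype libraries, and supplied on average 0.94% of the a signal in NPC1-deficient and 0.91% in wildtype libraries.

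Atp6v0a4, the paralog best known from the acid-secreting cells of the kidney and inner ear, showed the largest difference among the tested genes of the pump and of nutrient sensing. The gene (ENSMUSG00000038600, chromosome 6, 38048483 to 38124586, minus strand, mm10) had normalized counts of 29.0, 40.0, 62.1 and 51.6 in NPC1-deficient libraries 1 to 4, against 62.7, 82.8, 102 and 67.3 in wildtype libraries 1 to 4. Every NPC1-deficient library was below every wildtype library, with NPC1-deficient 3 and wildtype 1 almost touching. These values rest on few reads, 179 over the NPC1-deficient and 321 over the wildtype libraries. The log2 fold change was -0.80 (SE 0.24, 95% interval -1.32 to -0.28, unadjusted p = 0.00605, limma adjusted p = 0.282). It thus did not pass the test, and its adjusted p was 0.252 with edgeR and 0.123 with DESeq2. Its share of the a signal was 0.32 ± 0.12% in NPC1-deficient and 0.57 ± 0.13% in wildtype libraries (SD, n = 4 each). The rod, microglial and amacrine markers were lower in the same libraries, as given above. With the rod marker level as a term in the model the log2 fold change of Atp6v0a4 was -1.0 (limma adjusted p = 0.981). With the microglial level as a term it was -0.83 (limma adjusted p = 0.646). The rod sums did not overlap between the genotypes, and the microglial sums overlapped only through wildtype 1. These fits therefore cannot separate rod or microglial RNA from genotype, and nothing is read from them. The part of amacrine RNA was not tested. Of the exonic bases of Atp6v0a4, 5.21% also belong to D630045J12Rik on the same strand. Some reads therefore cannot be assigned to 1 of these genes with certainty.

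Tcirg1, the a paralog of the osteoclast pump, was described in each library after its values were seen. Its normalized counts were 191, 161, 111 and 100 in NPC1-deficient libraries 1 to 4, against 117, 137, 125 and 153 in wildtype libraries 1 to 4. The groups overlapped and their means of 141 ± 42.5 in NPC1-deficient and 133 ± 15.7 in wildtype libraries differed by less than their spread (log2 fold change 0.04, SE 0.19, limma adjusted p = 0.995).

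**Figure D3:**
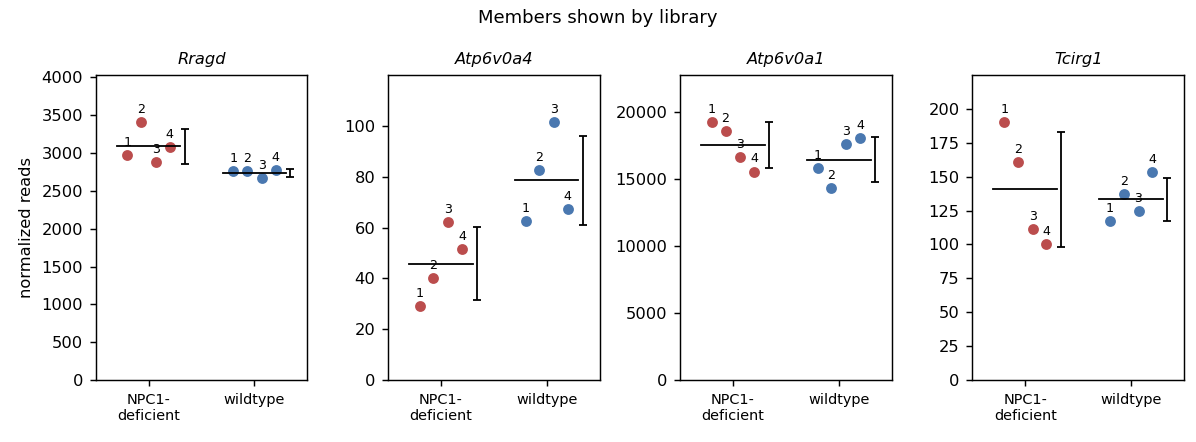
Normalized counts of Rragd, Atp6v0a4, Atp6v0a1 and Tcirg1 in each library, with NPC1-deficient libraries left of wildtype libraries; the black line is the mean and the bar the SD of 4 libraries. For Rragd the lowest NPC1-deficient library (2876) is above the highest wildtype library (2779), for Atp6v0a4 every NPC1-deficient library is below every wildtype library, and for Atp6v0a1 and Tcirg1 the groups overlap.

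The rotating ring of V0 is made of proteolipids, each of which carries a proton. Atp6v0b, the c'' proteolipid, stood at 17715 ± 1253 in NPC1-deficient and 17534 ± 705 in wildtype libraries per kilobase of the reference transcript (SD, n = 4 each), above 99.1% of all genes tested. Atp6v0d1, which couples the ring to the central stalk, had normalized counts of 21081, 19306, 21671 and 20655 in NPC1-deficient libraries 1 to 4, against 19263, 18693, 19542 and 20884 in wildtype libraries 1 to 4. Most NPC1-deficient libraries stood above most wildtype libraries, but wildtype 4 exceeded NPC1-deficient 2 and 4, and the difference did not pass the test (log2 fold change 0.08, SE 0.05, limma adjusted p = 0.924). Its paralog Atp6v0d2, known from osteoclasts and kidney, had 4 reads in NPC1-deficient 1 and 0 in the other 7 libraries, where the limit that a count of 0 allows is 3 reads.

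Subunit e is a small membrane protein of V0. Atp6v0e2 (ENSMUSG00000039347, chromosome 6, 48537615 to 48541801, plus strand, mm10) had normalized counts of 25781, 23848, 23880 and 23035 in NPC1-deficient libraries 1 to 4, against 23175, 23662, 23660 and 24548 in wildtype libraries 1 to 4. It made up 99.5 ± 0.11% of the per-kilobase signal of subunit e in NPC1-deficient and 99.4 ± 0.04% in wildtype libraries, and did not differ beyond the spread (log2 fold change 0.02, SE 0.05, limma adjusted p = 0.995). The paralog Atp6v0e had normalized counts of 153, 217, 235 and 205 in NPC1-deficient libraries 1 to 4, against 235, 212, 238 and 257 in wildtype libraries 1 to 4. NPC1-deficient 1 and 4 were below all wildtype libraries and NPC1-deficient 2 and 3 lay among them (log2 fold change -0.23, SE 0.13, limma adjusted p = 0.886; -0.10 without NPC1-deficient 1).

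The c proteolipid, Atp6v0c, needed a closer look at its sequence, because a second place in the genome can take its reads. The processed pseudogene Atp6v0c-ps2 (chromosome 6, 37806086 to 37806550, plus strand, mm10), named Gm15487 in the deposited table, matches the coding sequence of Atp6v0c (ENSMUSG00000024121, chromosome 17, 24163866 to 24169702, minus strand) over 465 bases with a single difference. That difference is T111C, counted from 1 at the first base of the coding sequence, with the base of Atp6v0c first. The stretch around it is shown for both because a read that lies wholly inside the shared stretch, which is 39.3% of the Atp6v0c transcript, can be told apart by this base alone; it comes from GENCODE M21 transcripts, 5′ to 3′, with the differing base in capitals.
Atp6v0c: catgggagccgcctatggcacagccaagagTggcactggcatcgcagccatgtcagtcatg
Atp6v0c-ps2: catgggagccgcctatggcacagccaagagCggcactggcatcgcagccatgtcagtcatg
The pseudogene held normalized counts of 9064, 8706, 8708 and 8009 in NPC1-deficient libraries 1 to 4, against 8385, 8078, 8435 and 9313 in wildtype libraries 1 to 4. Atp6v0c itself held 7371, 6509, 7146 and 6548 in NPC1-deficient libraries 1 to 4, against 6557, 6628, 6690 and 7564 in wildtype libraries 1 to 4. The pseudogene thus took 55.6 ± 1.10% of the sum of both in NPC1-deficient and 55.5 ± 0.54% in wildtype libraries (SD, n = 4 each), so the level of Atp6v0c alone is uncertain. The log2 fold change was 0.01 (limma adjusted p = 0.995) for the gene alone, and 0.01 when the reads of the pseudogene were added.

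In the cytosolic sector V1, the A and B subunits form the ring that hydrolyses ATP. Atp6v1a, the catalytic subunit, averaged 25637 ± 884 normalized counts in NPC1-deficient and 25107 ± 1171 in wildtype libraries (SD, n = 4 each). Atp6v1b2, the B paralog of brain and most tissues, had normalized counts of 30794, 27403, 27257 and 26656 in NPC1-deficient libraries 1 to 4, against 27974, 27283, 28833 and 28583 in wildtype libraries 1 to 4. It held 99.8% of the per-kilobase signal of B in both groups. NPC1-deficient 1 was above and NPC1-deficient 3 and 4 were slightly below the wildtype range (log2 fold change -0.01, SE 0.05, limma adjusted p = 0.995). Atp6v1b1, the paralog of renal intercalated cells, had normalized counts of 26.3, 40.0, 40.3 and 54.7 in NPC1-deficient libraries 1 to 4, against 44.5, 47.4, 44.7 and 55.6 in wildtype libraries 1 to 4. The groups overlapped (log2 fold change -0.29, SE 0.22, limma adjusted p = 0.953; -0.10 without NPC1-deficient 1).

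The stalks of V1 join the ATP-hydrolysing ring to V0. Atp6v1c1, which makes the reversible contact between the sectors, had normalized counts of 11569, 10234, 10415 and 10454 in NPC1-deficient libraries 1 to 4, against 10107, 10789, 10337 and 11050 in wildtype libraries 1 to 4. All NPC1-deficient libraries but the first lay inside the wildtype range (log2 fold change 0.01, SE 0.05, limma adjusted p = 0.995). The minor paralog Atp6v1c2 had normalized counts of 16.3, 18.0, 9.81 and 16.5 in NPC1-deficient libraries 1 to 4, against 10.3, 9.08, 5.59 and 12.6 in wildtype libraries 1 to 4. Only NPC1-deficient 3 lay in the wildtype range, but the gene rests on 61 reads in NPC1-deficient and 38 in wildtype libraries and did not pass the test (log2 fold change 0.66, SE 0.32, unadjusted p = 0.0603, limma adjusted p = 0.764).

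Atp6v1d forms part of the central rotor, and its normalized counts were 5508, 5081, 5516 and 5568 in NPC1-deficient libraries 1 to 4, against 5501, 5648, 5474 and 5729 in wildtype libraries 1 to 4. Only NPC1-deficient 2 lay below the wildtype range (log2 fold change -0.05, SE 0.05, limma adjusted p = 0.995). Atp6v1e1, a peripheral stalk subunit, had 20311, 18101, 19658 and 19438 in NPC1-deficient libraries 1 to 4, against 18188, 19228, 18343 and 19816 in wildtype libraries 1 to 4, with overlapping groups (log2 fold change 0.04, SE 0.05, limma adjusted p = 0.995). Atp6v1e2, the paralog known from testis, was near the limit of detection, with 1, 0, 1 and 0 reads in NPC1-deficient libraries 1 to 4, against 4, 5, 4 and 4 reads in wildtype libraries 1 to 4. Its groups did not overlap, but with 2 reads in all NPC1-deficient and 17 in all wildtype libraries it was below the limit for testing. A lincRNA on the opposite strand, AC154492.1, shares 29.4% of its exonic bases, and the library kit does not mark strand.

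Subunit G was the exception to the dominance of 1 paralog. Atp6v1g2, the neuronal paralog, supplied 52.5 ± 3.58% of the per-kilobase signal of G in NPC1-deficient and 52.3 ± 1.40% in wildtype libraries (SD, n = 4 each), and the widely expressed Atp6v1g1 supplied the rest. When lengths were taken over all annotated exons in place of the reference transcript, the share of Atp6v1g2 was 40.3% in NPC1-deficient and 40.0% in wildtype libraries, so which of the 2 is higher depends on the transcript assumed. Atp6v1g2 had normalized counts of 13590, 11283, 11482 and 11406 in NPC1-deficient libraries 1 to 4, against 11811, 10890, 11500 and 12575 in wildtype libraries 1 to 4. Only NPC1-deficient 1 stood outside the wildtype range (log2 fold change 0.03, SE 0.07, limma adjusted p = 0.995). Of the remaining V1 subunits, Atp6v1f of the rotor averaged 7539 ± 586 in NPC1-deficient and 7409 ± 460 in wildtype libraries, and Atp6v1h, which regulates ATP hydrolysis, averaged 15574 ± 639 in NPC1-deficient and 15438 ± 639 in wildtype libraries.

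The accessory proteins help to assemble the pump and carry it through the secretory pathway. Atp6ap1 had normalized counts of 28273, 25192, 26079 and 26070 in NPC1-deficient libraries 1 to 4, against 24179, 25852, 25636 and 26108 in wildtype libraries 1 to 4, with NPC1-deficient 1 the highest and the others overlapping (log2 fold change 0.05, SE 0.05, limma adjusted p = 0.983). Atp6ap2, also known as the prorenin receptor, had 17081, 15651, 15806 and 15596 in NPC1-deficient libraries 1 to 4, against 14234, 15128, 14869 and 15864 in wildtype libraries 1 to 4. All NPC1-deficient libraries were above 3 of the 4 wildtype libraries, but wildtype 4 overlapped them (log2 fold change 0.09, SE 0.05, limma adjusted p = 0.832). The related Atp6ap1l had 1227, 1115, 1123 and 1237 in NPC1-deficient libraries 1 to 4, against 1179, 1213, 1095 and 1216 in wildtype libraries 1 to 4, and its group means were nearly equal at 1175 ± 65.5 in NPC1-deficient and 1176 ± 56.1 in wildtype libraries.

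On the nutrient-sensing side, Rragd showed the clearest separation. The Rag GTPases work as pairs of RagA or RagB with RagC or RagD, and Rragd encodes RagD. The gene (ENSMUSG00000028278, chromosome 4, 32983037 to 33022180, plus strand, mm10) had normalized counts of 2971, 3412, 2876 and 3080 in NPC1-deficient libraries 1 to 4, against 2760, 2758, 2663 and 2779 in wildtype libraries 1 to 4. Every NPC1-deficient library was above every wildtype library, and NPC1-deficient 2 was the highest. The means were 3085 ± 234 in NPC1-deficient and 2740 ± 52.4 in wildtype libraries (SD, n = 4 each), a log2 fold change of 0.17 (SE 0.06, 95% interval 0.04 to 0.30, unadjusted p = 0.0137). The limma adjusted p was 0.442, so the gene did not pass, and it was 0.386 with edgeR and 0.283 with DESeq2. Without NPC1-deficient 2 the log2 fold change was 0.12. With the rod marker level as a term it was 0.11 (limma adjusted p = 1.0). The rod sums did not overlap between the genotypes, so that fit cannot separate rod RNA from genotype.

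Rragc, which encodes the alternative partner RagC, had normalized counts of 2762, 2713, 3312 and 3144 in NPC1-deficient libraries 1 to 4, against 3190, 3028, 3115 and 3364 in wildtype libraries 1 to 4. NPC1-deficient 1 and 2 were below all wildtype libraries and 3 and 4 were among them (log2 fold change -0.09, SE 0.07, limma adjusted p = 0.953). Per kilobase, Rragd made up 35.0% of the sum of Rragc and Rragd in NPC1-deficient libraries, with a range of 31.0% to 39.4%, and 30.9% in wildtype libraries, with a range of 30.0% to 32.0%. The ranges overlapped through NPC1-deficient 3. Among the other pair, Rraga held 80.2 ± 0.86% of the per-kilobase signal in NPC1-deficient and 81.0 ± 0.79% in wildtype libraries (SD, n = 4 each). Rraga averaged 10731 ± 682 normalized counts in NPC1-deficient and 11041 ± 208 in wildtype libraries, and Rragb averaged 3699 ± 92.5 in NPC1-deficient and 3623 ± 188 in wildtype libraries.

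The 5 subunits of Ragulator, the scaffold that anchors the Rags to the membrane, lay close together. Their log2 fold changes ran from 0.01 (Lamtor4) to 0.07 (Lamtor3), none past the test. Lamtor1, the lipid-anchored subunit that wraps around the others, averaged 5109 ± 290 in NPC1-deficient and 4896 ± 259 in wildtype libraries, and 18.7% of its exonic bases are shared with Lrrc51 on the opposite strand. Lamtor2 averaged 2302 ± 202 in NPC1-deficient and 2255 ± 130 in wildtype libraries, Lamtor4 averaged 3271 ± 220 in NPC1-deficient and 3240 ± 224 in wildtype libraries, and Lamtor5 averaged 3280 ± 272 in NPC1-deficient and 3161 ± 122 in wildtype libraries. Lamtor3 averaged 1068 ± 48.4 in NPC1-deficient and 1017 ± 68.0 in wildtype libraries. Its near-identical copy Gm5900 held 23.2% of the sum of both in NPC1-deficient and 23.8% in wildtype libraries, and with those reads added the log2 fold change was 0.06.

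Flcn encodes folliculin, which acts on RagC and RagD to stimulate their GTP hydrolysis. It had normalized counts of 892, 903, 818 and 939 in NPC1-deficient libraries 1 to 4, against 849, 941, 1083 and 917 in wildtype libraries 1 to 4, with overlapping groups (log2 fold change -0.09, SE 0.08, limma adjusted p = 0.978). Slc38a9, the arginine sensor and transporter of the lysosomal membrane, was among the least abundant, at 39.9 ± 3.39 normalized counts per kilobase in NPC1-deficient and 42.1 ± 4.50 in wildtype libraries (SD, n = 4 each; log2 fold change -0.07, SE 0.10, limma adjusted p = 0.995).

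For the kinase mTOR and its regulators no difference exceeded the spread of the libraries. Mtor had normalized counts of 1166, 970, 788 and 883 in NPC1-deficient libraries 1 to 4, against 1036, 975, 860 and 820 in wildtype libraries 1 to 4, with overlapping groups (log2 fold change 0.04, SE 0.11, limma adjusted p = 0.995). Rptor, the scaffold that brings substrates to the kinase, averaged 981 ± 160 in NPC1-deficient and 965 ± 103 in wildtype libraries. Rheb, the GTPase that activates mTORC1, had 12544, 11319, 12544 and 12757 in NPC1-deficient libraries 1 to 4, against 12216, 12832, 11736 and 13169 in wildtype libraries 1 to 4, and the groups overlapped (log2 fold change -0.02, SE 0.05, limma adjusted p = 0.995). Its inhibitor is the complex of Tsc1 and Tsc2. Tsc2 had 1684, 1702, 1467 and 1396 in NPC1-deficient libraries 1 to 4, against 1638, 1509, 1464 and 1442 in wildtype libraries 1 to 4, and NPC1-deficient 1 and 2 were the highest of all (log2 fold change 0.04, SE 0.08, limma adjusted p = 0.995). Tsc1 averaged 262 ± 42.8 in NPC1-deficient and 259 ± 50.1 in wildtype libraries. Over these 5 genes the 95% intervals of the log2 fold change reached from -0.30 to 0.35.

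Atp6v0a1 differed in opposite directions in the 2 sets of libraries. Libraries 1 and 2 of each group carry a different entry from libraries 3 and 4 in the contradictory label field, and are called here the first and second set. In the first set the log2 fold change of Atp6v0a1 was 0.33, and in the second it was -0.15, a difference of -0.48 (SE 0.09, limma interaction adjusted p = 0.0784), which did not pass. Of the 39 genes tested, 0 passed the limma interaction test, where 0.078% of all genes did, and 3 were below an unadjusted p of 0.05, where 13.4% of all genes were; the interaction was not run with edgeR or DESeq2. The other 2 were Tcirg1, at 0.46 in the first set and -0.39 in the second (adjusted p = 0.21), and Atp6v1g1, at -0.10 in the first and 0.13 in the second (adjusted p = 0.286). With robust moderation in limma, the interaction of Atp6v0a1 had an adjusted p of 0.0407. Rragd kept its sign, at 0.21 in the first set and 0.13 in the second, and so did Atp6v0a4, at -1.06 in the first and -0.54 in the second.

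**Figure D4:**
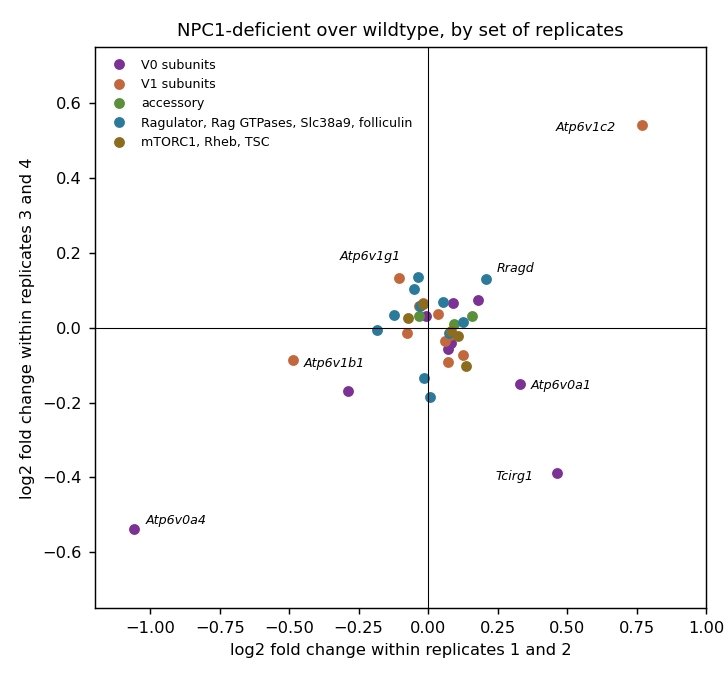
Log2 fold change of NPC1-deficient over wildtype in libraries 3 and 4 plotted against the same in libraries 1 and 2, with 1 point for each of the 39 genes tested. Atp6v0a1 (0.33 and -0.15) and Tcirg1 (0.46 and -0.39) lie in the quadrant of opposite signs, and Atp6v0a4 (-1.06 and -0.54) and Rragd (0.21 and 0.13) in those of like sign.

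The abundant genes tended to be high or low together in a library. Of the 28 with a mean of at least 1000, 11 had their lowest value in NPC1-deficient 2 and 7 in wildtype 1. The highest value lay in NPC1-deficient 1 for 9, in NPC1-deficient 3 for 6 and in wildtype 4 for 6. How often other genes at that level were lowest or highest in each library was not counted, so no excess is read from these counts. The median deviation of the 28 from their own means was 0.07, -0.07, 0.04 and 0.02 on the log2 scale in NPC1-deficient libraries 1 to 4, against -0.05, -0.01, -0.04 and 0.05 in wildtype libraries 1 to 4. The same median over all tested genes at that level lay within 0.02 of 0 in every library. The differences within a genotype were thus as large as the group differences of most of these genes.

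**Figure D5:**
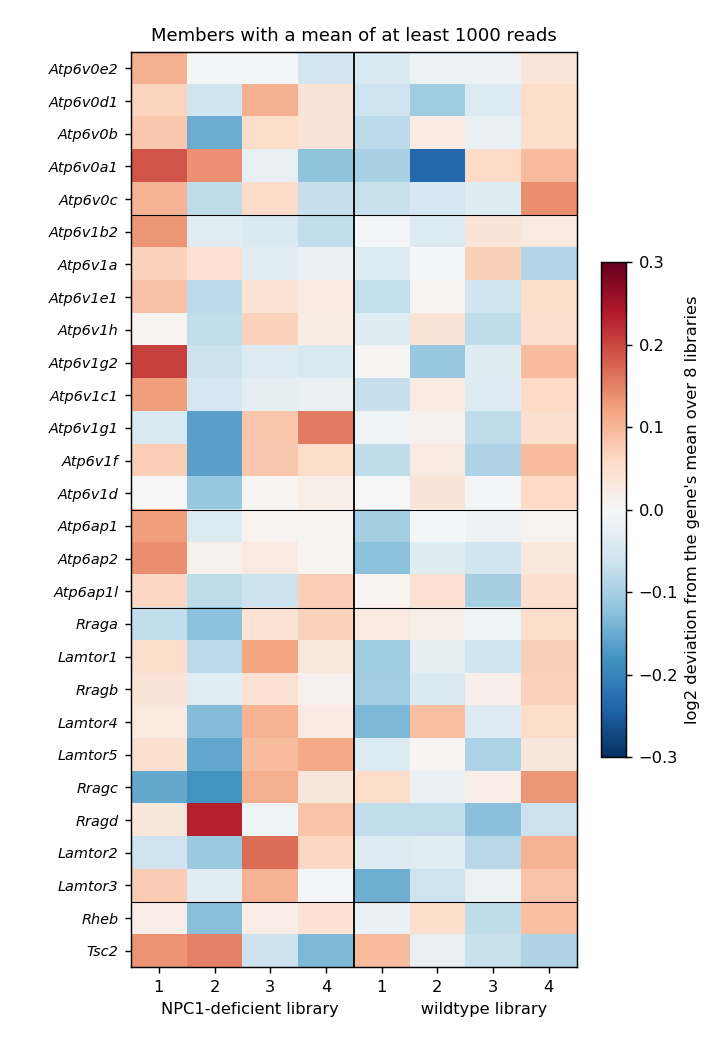
Log2 deviation of each of the 28 genes with a mean normalized count of at least 1000 from its mean over all 8 libraries, as colours, with NPC1-deficient libraries left of wildtype libraries. NPC1-deficient 2 (median -0.07) and wildtype 1 (median -0.05) run low across many genes, and NPC1-deficient 1 (median 0.07) and wildtype 4 (median 0.05) run high.

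Many lysosomal genes carry an E-box-containing motif near their start, the CLEAR element, which TFEB and its relatives bind. Promoters of 33 of the 41 genes were found in a RefSeq table for GRCm38.p6, with windows of 250 bases before to 50 after each annotated start; Lamtor3, Atp6v1h, Atp6v0a2, Atp6v1c1, Atp6v1g1, Atp6v0d2, Atp6v1b2 and Atp6ap1l were not matched. The E-box CACGTG was present in windows of 9 of the 33 genes (27.3%), against 2187 of 27025 genes in the table (8.09%). The longer core TCACGTGA was present in 3 of the 33 (9.09%), Atp6v0d1, Atp6v0e and Atp6v1a, against 1.12% of all genes. Only exact matches were counted. Each motif is its own reverse complement, so both strands were covered, and the longer contains the shorter. The base composition of the windows was not matched. The 250 bases before the start are shown for 4 genes, 5′ to 3′ on the gene's strand, with CACGTG in capitals: Atp6v0b and Lamtor4, which have 2 matches each, and the paired Rragc and Rragd, of which the first has 1 match and the second has none.
Atp6v0b, chr4:117887330-117887579, minus strand: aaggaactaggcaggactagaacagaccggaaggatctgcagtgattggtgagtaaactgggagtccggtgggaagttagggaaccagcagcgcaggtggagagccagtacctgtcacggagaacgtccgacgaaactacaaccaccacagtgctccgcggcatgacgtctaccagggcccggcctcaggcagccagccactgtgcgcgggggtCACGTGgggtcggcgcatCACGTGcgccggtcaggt
Lamtor4, chr5:138255232-138255481, plus strand: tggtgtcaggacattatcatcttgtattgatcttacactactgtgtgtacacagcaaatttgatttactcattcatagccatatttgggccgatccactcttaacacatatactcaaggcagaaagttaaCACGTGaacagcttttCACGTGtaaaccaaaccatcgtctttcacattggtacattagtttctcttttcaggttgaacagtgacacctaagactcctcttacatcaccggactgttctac
Rragc, chr4:123917183-123917432, plus strand: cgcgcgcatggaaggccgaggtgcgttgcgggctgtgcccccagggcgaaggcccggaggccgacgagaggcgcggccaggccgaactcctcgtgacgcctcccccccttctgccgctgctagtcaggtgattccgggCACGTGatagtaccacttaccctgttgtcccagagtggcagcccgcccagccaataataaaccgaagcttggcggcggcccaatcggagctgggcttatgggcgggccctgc
Rragd, chr4:32982748-32982997, plus strand: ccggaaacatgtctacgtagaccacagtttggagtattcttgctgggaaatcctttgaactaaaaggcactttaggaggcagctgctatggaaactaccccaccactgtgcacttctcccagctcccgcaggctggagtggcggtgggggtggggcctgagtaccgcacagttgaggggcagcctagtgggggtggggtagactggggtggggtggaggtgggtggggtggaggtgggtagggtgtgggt
The other E-box genes were Lamtor1 and Rheb, with 1 match each, and Rragb, with 3 matches, the most of the 33 genes. Rragd, the separated gene on the nutrient-sensing side, had no such letters in its window. Only exact letters within the window were searched, so this does not show whether TFEB or its relatives act on Rragd. Their binding was not tested. The log2 fold changes of the 3 genes with the longer core were 0.08 for Atp6v0d1, -0.23 for Atp6v0e and 0.03 for Atp6v1a, none past the test.

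The wider pathway gave no gene past the test. Of 63 further genes in 6 lists, 62 were listed and 60 tested; limma called 0 of them (1 at an unadjusted p under 0.05), as did edgeR (1 unadjusted) and DESeq2 (1 unadjusted). Over all genes the shares called were 0.104% with limma, 0.104% with edgeR and 1.6% with DESeq2, and those at an unadjusted p under 0.05 were 6.76%, 6.93% and 6.4% in the same order. Of the 60, 36 had positive and 24 negative log2 fold changes, with a median of 0.02 and a range of -0.27 to 0.25. The gene at an unadjusted p under 0.05 was Clcn6, a chloride and proton exchanger of late endosomes, with normalized counts of 5214, 5289, 5082 and 4996 in NPC1-deficient libraries 1 to 4, against 4605, 4495, 5096 and 4478 in wildtype libraries 1 to 4. NPC1-deficient libraries were high, but wildtype 3 overlapped them (log2 fold change 0.14, SE 0.05, limma adjusted p = 0.507). In its list of 15 lysosomal channels and transporters 13 were positive and 2 negative, with a median of 0.05. Over all genes tested 7994 were positive and 7392 negative, and at a mean of at least 1000, 3482 of 5765 were positive. Whether the list leaned further than such genes was not tested. Mcoln1, the lysosomal calcium channel TRPML1, had 3619, 3462, 3391 and 3410 in NPC1-deficient libraries 1 to 4, against 3222, 3317, 3286 and 3304 in wildtype libraries 1 to 4, without overlap, as in 4.27% of all genes tested (log2 fold change 0.08, SE 0.05, limma adjusted p = 0.871).

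Among 11 assembly and regulatory factors of the pump 6 were positive and 5 negative, with a median of 0.0035. Ccdc115, an assembly factor, had 1861, 1774, 1806 and 1842 in NPC1-deficient libraries 1 to 4, against 2004, 2001, 1904 and 1914 in wildtype libraries 1 to 4. Every NPC1-deficient library was below every wildtype library, although the difference did not pass (log2 fold change -0.10, SE 0.05, limma adjusted p = 0.762). Oxr1, whose protein promotes the separation of V1 from V0, had 3257, 3284, 3216 and 3237 in NPC1-deficient libraries 1 to 4, against 3440, 3419, 3547 and 3362 in wildtype libraries 1 to 4, likewise without overlap (log2 fold change -0.08, SE 0.04, limma adjusted p = 0.826).

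The GATOR and KICSTOR complexes, which relay amino acid levels to the Rags, had 5 positive and 7 negative genes of 12. Mios averaged 989 ± 65.5 in NPC1-deficient and 1090 ± 47.9 in wildtype libraries (log2 fold change -0.14, limma adjusted p = 0.754), and BC048403 differed by 0.25 in log2 terms (limma adjusted p = 0.928). Of 4 amino acid sensors 2 were positive and 2 negative. Gatsl2 averaged 1282 ± 81.7 in NPC1-deficient and 1419 ± 101 in wildtype libraries (log2 fold change -0.15, limma adjusted p = 0.754), and Sesn2 differed by -0.09 (limma adjusted p = 0.995). Of 7 partners of mTORC1, TSC and folliculin 4 were positive and 3 negative, among them the folliculin partners Fnip1 at -0.14 (limma adjusted p = 0.901) and Fnip2 at 0.10 (limma adjusted p = 0.952). Of 11 mTORC1 substrates 6 were positive and 5 negative, with Eif4ebp1, a repressor of translation, at 0.12 (limma adjusted p = 0.981). Mitf, a relative of TFEB, had normalized counts of 62.6, 60.0, 52.3 and 65.1 in NPC1-deficient libraries 1 to 4, against 66.1, 67.6, 70.9 and 85.2 in wildtype libraries 1 to 4. The groups did not overlap, by a narrow margin, and the difference did not pass (log2 fold change -0.27, SE 0.15, limma adjusted p = 0.87).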

How the data were processed

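Per the labels' protocols, RNA was taken right after immunopanning and libraries were made with an unstranded TruSeq kit. The submitters' processing notes name, without roles, the build mm10 and the tools DESeq2 1.0.19, HTSeq 0.5.4p3 and CASAVA 1.8.2. Which aligner and annotation release were used is not given in the sources used here. Values in the deposited table are a normalized signal, shown by the numbers themselves to be a gene's read count over a size factor of its library: all 199536 values (100%) became whole reads within 1e-06 of a read. A value of 0 allows up to 3 reads, or 2.69 to 3.42 on the normalized scale, for counting error only. Mitochondrial genes took 9.04% to 12.7% of reads.

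Libraries were grouped by title and description. Genes with a mean of at least 10 (15386 of 24942) were compared on log2(value + 1), which understates the change of low genes, with limma 3.58.1 in R 4.3.3, a mean-variance trend, no covariate and Benjamini-Hochberg adjustment over all genes tested at 0.05. Alternatives were quantile and upper-quartile scaling, pseudocounts of 0.5 and 5, a minimum of 50 or none, robust moderation, a replicate block, a library-set term, each set alone, microglial and rod marker levels as terms, edgeR 4.0.16 and DESeq2 1.42.0 on the recovered reads, and leaving out each library. Fits without wildtype 1 and NPC1-deficient 1, with near-identical copies added, alternatives of the interaction, and exonic lengths were added after the data were seen.

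The genes, lists and tests were chosen with earlier results of these data known. Values in each library are given for genes past the threshold or without overlap of the groups, for the 3 with the smallest p in each complex and for the most abundant paralog of each subunit; for other lists, for up to 2 with the smallest p. Tcirg1, Atp6v0c with its pseudogene, and Atp6v1g1 were singled out after their values were seen. GENCODE M21, on the same build as mm10, held 24471 of 24942 identifiers; copies were matches of at least 95% identity over at least 200 bases. A simulation of this comparison over 15386 genes planted log2 changes of 0.35, 0.5, 1 and 2, each in 50 genes. The shares detected by limma were 28%, 40%, 84% and 100% in that order. Unchanged genes made up 9 of the 135 genes called there. In the real libraries limma called 16 genes, and fewer calls make the adjusted threshold stricter. The simulated shares may therefore overstate what could be detected here. Whether they hold under the library-set differences and the lower rod and microglial markers of the real libraries was not tested.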

Additional observations from a re-analysis of the deposited data

Results flagged for a closer look

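Some libraries stood apart from the other 3 of their group, with a gap to the nearest, relative to the group's range, above Dixon's 95% critical value. This held for 10 of the 81 groups of 4 that could be examined, and chance gives about 1 in 20 for independent groups. Without the groups that hold a count of 0, where the gap is no measure of spread, it held for 9 of 79. The abundant genes tended to be high or low together in a library, so the groups are not independent. The share flagged over all genes tested was not computed, so no excess is read from these counts. NPC1-deficient 1 was the highest of its group for Atp6v1c1 (11569, others 10234 to 10454), Atp6v1g2 (13590, others 11283 to 11482) and Atp6ap2 (17081, others 15596 to 15806). For Atp6v0d2 it had 3.63, from 4 reads, and the others 0; this stands apart by construction, because the others share the value 0. NPC1-deficient 2 was the lowest for Atp6v1d (5081, others 5508 to 5568), Atp6v1f (6664, others 7751 to 7891) and Rheb (11319, others 12544 to 12757). NPC1-deficient 4 was the highest for Slc38a9 (401, others 338 to 343). Among wildtype libraries, wildtype 3 was the highest for Atp6v0a2 (224, others 197 to 199) and wildtype 4 for Atp6v0c (7564, others 6557 to 6690). All these values are normalized read counts.

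In 3 genes every NPC1-deficient library lay on 1 side of both wildtype libraries in libraries 1 and 2 and on the other side in libraries 3 and 4, a pattern found in 10.3% of all genes tested. The log2 fold change of libraries 3 and 4 minus that of libraries 1 and 2 was -0.48 for Atp6v0a1 (limma interaction adjusted p = 0.0784), -0.85 for Tcirg1 (limma interaction adjusted p = 0.21) and 0.24 for Atp6v1g1 (limma interaction adjusted p = 0.286).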

How the results depend on the processing

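No alternative called any of the 39 genes: 0 passed in all 24, with a median log2 fold change from -0.01 to 0.05. The counts at an unadjusted p under 0.05 ran from 1 to 6, with 6 in libraries 1 and 2 alone. The share of all genes under that threshold is given above for the main fit, edgeR and DESeq2. It was not computed for the other alternatives, so their counts have no background to be read against. Rragd stayed positive (0.11 to 0.21, adjusted p 0.283 to 1.0) and Atp6v0a4 negative (-1.06 to -0.54, adjusted p 0.123 to 0.981) throughout. The number of genes called over the whole table, 16 with limma, was 246 with DESeq2, 99 with the library-set term, 75 with the microglial term, 69 with the rod term, 10 at a minimum of 50, 57 in libraries 1 and 2 alone, 307 in libraries 3 and 4 alone, 167 without wildtype 1 and NPC1-deficient 1, and 2 to 141 with 1 library left out; the cause was not tested. With the replicate number as a block it was 34, with 0 of the 39 called. Deviations of same-numbered libraries from their group means correlated at -0.02, -0.03, -0.02 and -0.07. Those of differently numbered libraries ran from -0.12 to 0.10. The values for same numbers lie inside that range, so they cannot show whether the numbers pair the libraries. Of 504 log2 fold changes of single genes under an alternative, 460 kept their sign, 44 reversed and none gained or lost a call; every reversal began within 0.1 of 0. In libraries 1 and 2 alone Flcn was 0.0058 and Atp6v1b2 0.072. In libraries 3 and 4 alone Atp6v0a1 was -0.15, Atp6v0e2 -0.039, Atp6v1c1 -0.035, Atp6v1g2 -0.071, Atp6ap1l 0.030, Mtor -0.0092, Rheb 0.025 and Tsc2 -0.021. Under quantile scaling Atp6v0e2 was -0.014, Atp6v1c1 -0.020 and Atp6ap1l 0.0060. With the microglial term Atp6v1b2 was 0.042, Mtor -0.048 and Rheb 0.0079, and with the rod term Atp6v1b2 was 0.033, Atp6v1c1 -0.031 and Atp6v1e1 -0.0035. Without wildtype 1 and NPC1-deficient 1 Atp6v0e2 was -0.022, Atp6v1c1 -0.048, Atp6v1e1 -0.0050, Atp6v1g2 -0.031, Atp6ap1 -0.0049 and Mtor -0.0087. With 1 library left out the ranges were -0.034 to 0.024 for Atp6ap1l, -0.010 to 0.044 for Atp6v0e2, -0.055 to 0.014 for Atp6v1b2, -0.027 to 0.034 for Atp6v1c1, -0.036 to 0.063 for Atp6v1g2, -0.067 to 0.12 for Mtor, -0.053 to 0.016 for Rheb and -9.8e-05 to 0.10 for Tsc2. Without NPC1-deficient 1, Atp6v0e and Atp6v1b1 both came to -0.10. Robust moderation put 1 gene, Atp6v0a1, past the interaction test (adjusted p = 0.0407). With exonic lengths the share of Atp6v0a1 was 97.3% in NPC1-deficient and 97.1% in wildtype libraries, of Atp6v1b2 99.8% in both, of Atp6v1c1 99.6% in NPC1-deficient and 99.8% in wildtype, of Atp6v1g2 40.3% in NPC1-deficient and 40.0% in wildtype, and of Rragc 59.9% in NPC1-deficient and 64.2% in wildtype. Depth limits Atp6v0a4, Atp6v1b1, Atp6v1c2, Atp6v1e2 and Atp6v0d2, which rest on 0 to 321 reads per group.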
